A study of Mus musculus with 6 samples.

Results

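Killer T cells carry their weapons in cytotoxic granules. Followed here, in cultures of activated mouse CD8 T cells, were 10 genes of these granules, their release and the serpins that protect the killer: Prf1, Gzmb, Gzmc, Serpinb9, Serpinb6b, Srgn, Nkg7, Ctsc, Lamp1 and Unc13d. All 10 are called granule genes for short, with Serpinb9 and Serpinb6b, whose products are cytosolic, included. They are 10 of the 49671 genes in the count tables, and all 10 were among the 13996 genes with enough counts to be tested. The genes were chosen by name as granule genes, but with the differences of BiTS from isotype and from BiTS(mut) already known. Their values in those comparisons are therefore given as description, without a test, and nothing is read from how many of them passed.

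RNA was sequenced in bulk from splenocyte cultures of OT-I mice, whose CD8 T cells bear a transgenic receptor for the SIINFEKL peptide of ovalbumin. All cultures received SIINFEKL, presented by antigen-presenting cells, and were harvested at 48 h. They differed in the added agent, which was BiTS, a bispecific molecule built to bring the inhibitory receptor LAG-3 next to the T cell receptor, its mutated version BiTS(mut), or an isotype control. Each of the 3 groups had 2 libraries: BiTS replicates 1 and 2, BiTS(mut) replicates 1 and 2, and isotype replicates 1 and 4. The labels call the cells naive primary CD8 T cells, and give neither the age of the mice, nor the dose of the agents, nor whether libraries came from separate animals or cultures. P-values thus measure only the spread between these samples, which may be technical. Title numbers 1 to 3 (BiTS 1, BiTS(mut) 1 and isotype 1) and 4 to 6 (BiTS 2, BiTS(mut) 2 and isotype 4) are called the first and the second set, since 7382 genes were called between them, against at most 476 between treatments in the same fit. The labels do not say what the numbers mark.

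A cytotoxic T cell kills by fusing granules with its membrane where it touches a target. Perforin, the product of Prf1, opens pores through which granzymes enter the target, and granzyme B (Gzmb) cleaves proteins after aspartate and starts apoptosis. Granzyme C (Gzmc) is a further mouse granzyme of the same gene cluster. Serpins of the cell's own cytosol protect the killer from leaked granzymes: in mice Serpinb9 inhibits granzyme B and Serpinb6b inhibits granzyme A. Serglycin (Srgn) is the proteoglycan core on which granule proteins are stored, and cathepsin C (Ctsc) activates granzymes by removing an amino-terminal dipeptide. LAMP1 (Lamp1, also CD107a) sits in the granule membrane and shows on the cell surface after release, Nkg7 takes part in granule release, and Munc13-4 (Unc13d) primes granules for fusion. Prf1 and the granzymes are induced when CD8 T cells are activated.

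The promoter windows of 4 genes are printed here: Prf1 and Gzmc had the widest range between libraries, Gzmb was the most abundant, and Lamp1 stands for the lysosomal genes. Each is the stretch of 250 bases before the gene's start in RefSeq (GRCm38.p6), 5′ to 3′ on the gene's strand. Capitals mark matches, on either strand, to AP-1 (TGANTCA), CRE (TGACGT), ETS (AGGAAGT), RUNX (TGTGGT), T-box (AGGTGT) and E-box (CACGTG) motifs. These windows are chr10:61297586-61297835 (plus strand) for Prf1, chr14:56262335-56262584 (minus strand) for Gzmb, chr14:56234658-56234907 (minus strand) for Gzmc and chr8:13158911-13159160 (plus strand) for Lamp1.
Prf1: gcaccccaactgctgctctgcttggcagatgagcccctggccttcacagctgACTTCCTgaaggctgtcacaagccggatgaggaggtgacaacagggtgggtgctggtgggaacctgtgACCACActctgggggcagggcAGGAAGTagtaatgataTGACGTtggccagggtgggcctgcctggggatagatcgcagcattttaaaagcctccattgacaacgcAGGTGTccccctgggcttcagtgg
Gzmb: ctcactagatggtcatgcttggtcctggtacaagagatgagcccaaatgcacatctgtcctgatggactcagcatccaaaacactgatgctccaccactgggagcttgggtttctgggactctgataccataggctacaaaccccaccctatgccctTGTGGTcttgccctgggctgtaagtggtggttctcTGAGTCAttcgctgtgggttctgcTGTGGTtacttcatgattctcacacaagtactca
Gzmc: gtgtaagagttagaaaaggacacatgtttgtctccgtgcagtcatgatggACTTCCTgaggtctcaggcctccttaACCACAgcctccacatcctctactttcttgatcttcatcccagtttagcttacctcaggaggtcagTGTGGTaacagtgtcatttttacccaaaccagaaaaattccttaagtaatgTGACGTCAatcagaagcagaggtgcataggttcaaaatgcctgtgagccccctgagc
Lamp1: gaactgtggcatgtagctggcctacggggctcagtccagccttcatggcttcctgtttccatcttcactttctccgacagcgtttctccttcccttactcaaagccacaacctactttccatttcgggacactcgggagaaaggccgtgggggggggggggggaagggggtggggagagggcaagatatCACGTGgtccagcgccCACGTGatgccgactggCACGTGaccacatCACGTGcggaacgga

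The Prf1 window held 2 ETS matches and 1 match each to CRE, RUNX and T-box. Gzmb held 1 AP-1 and 2 RUNX matches, and Gzmc held 1 ETS match, 2 RUNX matches and 2 CRE matches that overlap, one on each strand. Lamp1 held 4 E-box matches within its last stretch, and its 1 RUNX match is left in lower case. At least 4 E-boxes stood in 7 of the 32817 RefSeq windows of this length (0.0213%). Any match was found in 6.75% of all windows for AP-1, 6.46% for CRE, 7.69% for ETS, 14.04% for RUNX, 11.8% for T-box and 6.02% for E-box. A seventh motif, STAT (TTCNNNGAA, 7.01% of windows), had no match in these 4 windows and 1 each in those of Nkg7 and Ctsc. The windows of Serpinb9 and Serpinb6b held none of the 7 motifs. The 4 sequences and the motifs were picked after values and sequences had been seen, and a match is only a run of letters.

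Per base of exon, Gzmb was by far the highest of the 10 genes, and Gzmc the lowest. Gzmb averaged 1867 RPKM (counts scaled to exon length and library total; SD 258 over the 6 libraries), and only 20 tested genes had a higher mean. Serpinb6b followed at 284 RPKM (SD 110.1), then Srgn at 185 (SD 67.2), Nkg7 at 172 (SD 15.7) and Serpinb9 at 127 (SD 42.7). Lamp1 stood at 57.2 RPKM (SD 20.2), Unc13d at 43.5 (SD 2.84), Prf1 at 38.8 (SD 15.6), Ctsc at 22.6 (SD 11.1) and Gzmc at 4.61 (SD 2.92). Gzmb was above Serpinb6b, Serpinb6b above Srgn, Serpinb9 above Lamp1, and Ctsc above Gzmc in 6 of 6 libraries. Srgn and Nkg7, and Lamp1 and Unc13d, were each in this order in 3 libraries, so those neighbours did not differ beyond their spread. Unc13d was above Prf1 in 4 libraries, and the remaining neighbours kept the order in 5.

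**Figure D1:**
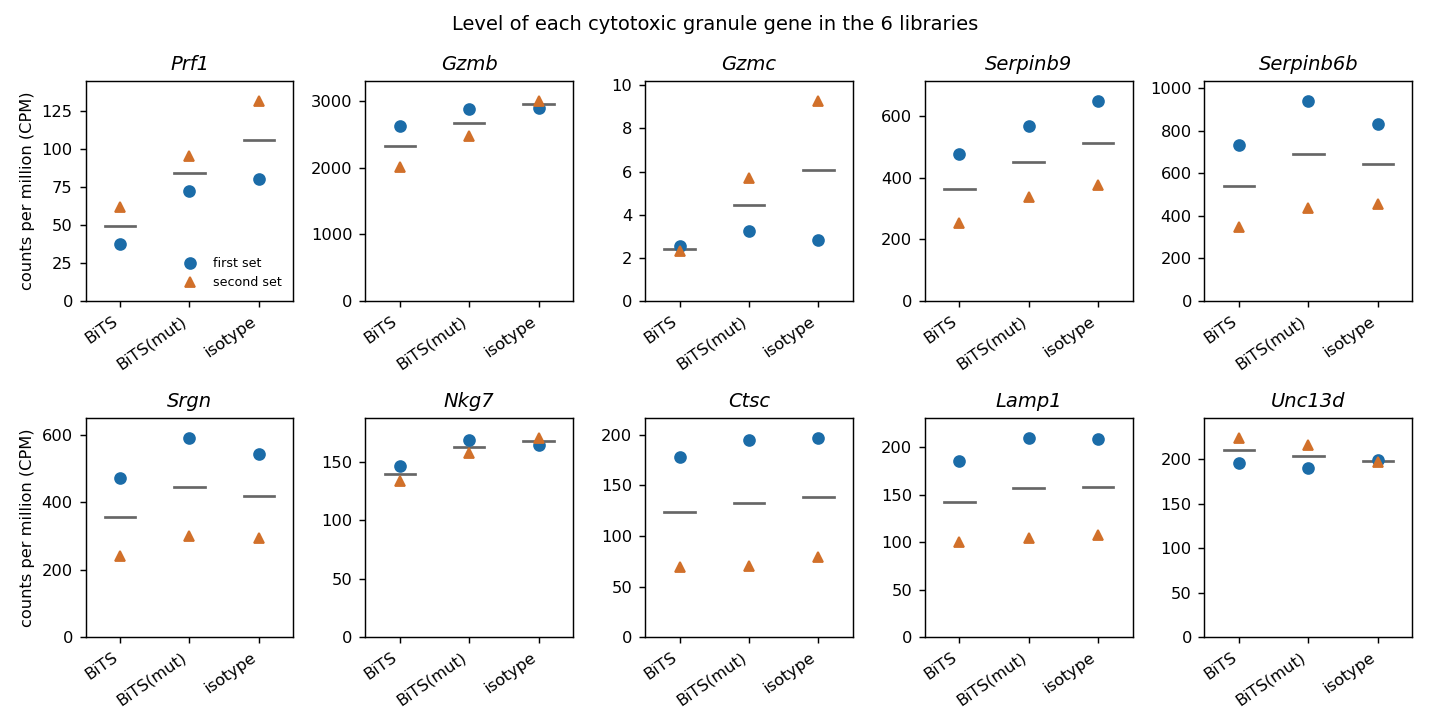
Level of each of the 10 granule genes in CPM (counts divided by the library's total gene counts, in parts per 1e6), with 1 point per library, BiTS left of BiTS(mut) left of isotype and the 2 sets marked apart. Prf1 is lowest in both BiTS libraries, at 37.1 and 61.4, while Ctsc, Lamp1, Srgn and both serpins split by set in every group.

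The pore former was the member whose difference between BiTS and isotype was most alike in both sets. Prf1 (chr10:61297836-61304263, plus strand, mm10, a protein-coding gene of 3 exon blocks, ENSMUSG00000037202) had 37.1 and 61.4 CPM in BiTS replicates 1 and 2, 72.2 and 95.6 CPM in BiTS(mut) replicates 1 and 2, and 80.1 and 132 CPM in isotype replicates 1 and 4. These are 500 and 664 counts in BiTS, 1100 and 1175 in BiTS(mut), and 932 and 1461 in isotype. Both BiTS libraries lay below every other library, whereas BiTS(mut) and isotype overlapped. Within the first set Prf1 was 2.16-fold lower in BiTS than in isotype, and within the second 2.14-fold lower, so the difference was of nearly the same size in both. Against BiTS(mut) it was 1.95-fold lower in the first set and 1.56-fold lower in the second. The 95% Wilson interval of Prf1 was 56.9 to 66.3 CPM in BiTS 2 and 68.0 to 76.6 CPM in BiTS(mut) 1. Such intervals cover counting error alone and do not test a difference between treatments.

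Of the granzymes, Gzmb (chr14:56258856-56262260, minus strand, ENSMUSG00000015437) had 2627 and 2014 CPM in BiTS, 2876 and 2469 CPM in BiTS(mut), and 2895 and 2999 CPM in isotype. Both BiTS libraries lay below both isotype libraries, but the first BiTS library lay above the second BiTS(mut) library. The ratio of BiTS to isotype was 0.907 in the first set and 0.671 in the second. Gzmc (chr14:56231401-56234656, minus strand) had only 34 and 25 counts in BiTS, 49 and 70 in BiTS(mut), and 33 and 103 in isotype, or 2.52 and 2.31, 3.22 and 5.69, and 2.84 and 9.28 CPM. Its wide range came from the second set, where BiTS was 4.01-fold below isotype, against 1.12-fold in the first. The 95% interval of Gzmc in BiTS 1 was 1.80 to 3.52 CPM and that in isotype 1 was 2.02 to 3.98 CPM. These overlap, but they cover counting error alone and do not test a difference.

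The other granzymes were close to absent. Gzma, granzyme A, the protease that Serpinb6b inhibits, had 11 and 8 counts in BiTS, 8 and 3 in BiTS(mut), and 11 and 0 in isotype, the 0 allowing up to 0.270 CPM. Gzmd and Gzmn, neighbours of Gzmb and Gzmc, had 0 counts in every library, which allows at most 0.277 CPM in the shallowest one. Gzmk had 2 counts in all, Gzme 4 and Gzmg 1. Gzmf had 6 to 14 counts a library. Gzmm had 2 and 12 counts in BiTS, 5 and 18 in BiTS(mut), and 0 and 6 in isotype. Granzymes are close relatives, so counts of a few reads could be shared with a neighbour.

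Both serpins among the members were abundant and split by set before they split by treatment. Serpinb9 (chr13:33003250-33017957, plus strand) had 475 and 252 CPM in BiTS, 566 and 335 CPM in BiTS(mut), and 649 and 375 CPM in isotype. Within each set the order was the same, with BiTS lowest and isotype highest, although the groups overlapped across sets. Serpinb6b (chr13:32965209-32979067, plus strand) had 731 and 347 CPM in BiTS, 939.9 and 439 CPM in BiTS(mut), and 831 and 456 CPM in isotype. BiTS was again lowest in both sets, at 0.778 and 0.791 of BiTS(mut), while BiTS(mut) was above isotype in the first set and below it in the second. Both genes have near relatives, so some reads could be split among family members.

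Storage and processing genes showed the same split by set. Srgn (chr10:62493833-62527451, minus strand) had 473 and 241 CPM in BiTS, 592 and 299 CPM in BiTS(mut), and 543 and 294 CPM in isotype, and was lowest in BiTS in each set. Ctsc (chr7:88278085-88310888, plus strand) had 178 and 69.5 CPM in BiTS, 195 and 70.5 CPM in BiTS(mut), and 197 and 79.3 CPM in isotype. Lamp1 (chr8:13159161-13175338, plus strand) had 185 and 101 CPM in BiTS, 210.3 and 105 CPM in BiTS(mut), and 209 and 108 CPM in isotype. Treatments thus lay close together within a set for Ctsc and Lamp1, and the sets lay far apart. Lamp1 shares 249 exon bases with Grtp1 on the other strand, which had 280 counts in all 6 libraries together. No source used here gives the strand setting, so such reads cannot be told apart.

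Nkg7 and Unc13d, both of granule release, varied least. Nkg7 (chr7:43437073-43438249, plus strand) had 146 and 134 CPM in BiTS, 169 and 157 CPM in BiTS(mut), and 165 and 171 CPM in isotype, and both BiTS libraries lay below all the others. Unc13d (chr11:116062095-116077961, minus strand) had 195 and 224 CPM in BiTS, 190.4 and 216 CPM in BiTS(mut), and 198 and 197 CPM in isotype. It was the only member that was not lowest in BiTS in both sets. The highest library was 1.18-fold above the lowest for Unc13d, 1.28-fold for Nkg7 and 1.49-fold for Gzmb, against 4.01-fold for Gzmc, 3.55-fold for Prf1 and 2.83-fold for Ctsc. In bulk RNA, fewer cells of a type and less RNA per cell cannot be told apart.

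Set against isotype, the comparison that asks what BiTS does to activated OT-I cells, 9 of the 10 genes were lower in BiTS in both sets, and Prf1 had the largest difference that was alike in both sets. A fit across all genes with the set as a block (edgeR quasi-likelihood) put Prf1 at a log2 fold change of -1.08 ± 0.10 (SE), Gzmc at -1.15 ± 0.31, Serpinb9 at -0.48 ± 0.08 and Gzmb at -0.33 ± 0.08. Smaller values were -0.26 ± 0.08 for Serpinb6b, -0.23 ± 0.09 for Nkg7, -0.21 ± 0.08 for Srgn, -0.14 ± 0.09 for Ctsc and -0.11 ± 0.09 for Lamp1. Unc13d was at 0.11 ± 0.08. With the block, 4 of the 10 (Prf1, Gzmb, Gzmc and Serpinb9) were called lower, where 1.59% of all tested genes were. Without it no gene of the 13996 was called (0%), 176 being under 0.05 before adjustment, and DESeq2 also called 0. Prf1 was then at -1.08 ± 0.37. The 2 libraries of BiTS lay below both of isotype in CPM for 4 members (Prf1, Gzmb, Gzmc and Nkg7), as for 11.7% of all tested genes.

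For 2 of these genes, Gzmb and Gzmc, the difference between BiTS and isotype lay mostly in the second set. The log2 ratio of CPM was -0.14 in the first set and -0.57 in the second for Gzmb, and -0.17 and -2.004 for Gzmc. With the block, leaving out a BiTS or isotype library leaves the comparison mainly to the other set. Such fits therefore cannot tell dependence on 1 library from a difference between the sets. Gzmb was also not called by DESeq2 with the block, which gave Gzmc no adjusted p. Without BiTS 2 or isotype 4 the blocked log2 fold change of Gzmb was -0.17 or -0.13 and that of Gzmc -0.43 or -0.39, and neither was called. Without BiTS 1 or isotype 1 Gzmb was at -0.49 or -0.53 and Gzmc at -1.82 or -1.69. Gzmb, at -0.33, was not called without either BiTS(mut) library. Serpinb9 ran from -0.56 to -0.40 and missed the call only without BiTS 2. Prf1 ran from -1.18 to -0.96, whichever of the 6 libraries was left out. Scaling to the spike-in transcripts in place of TMM kept the blocked sign of all 10 in BiTS over isotype but called none of them in any treatment comparison.

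**Figure D2:**
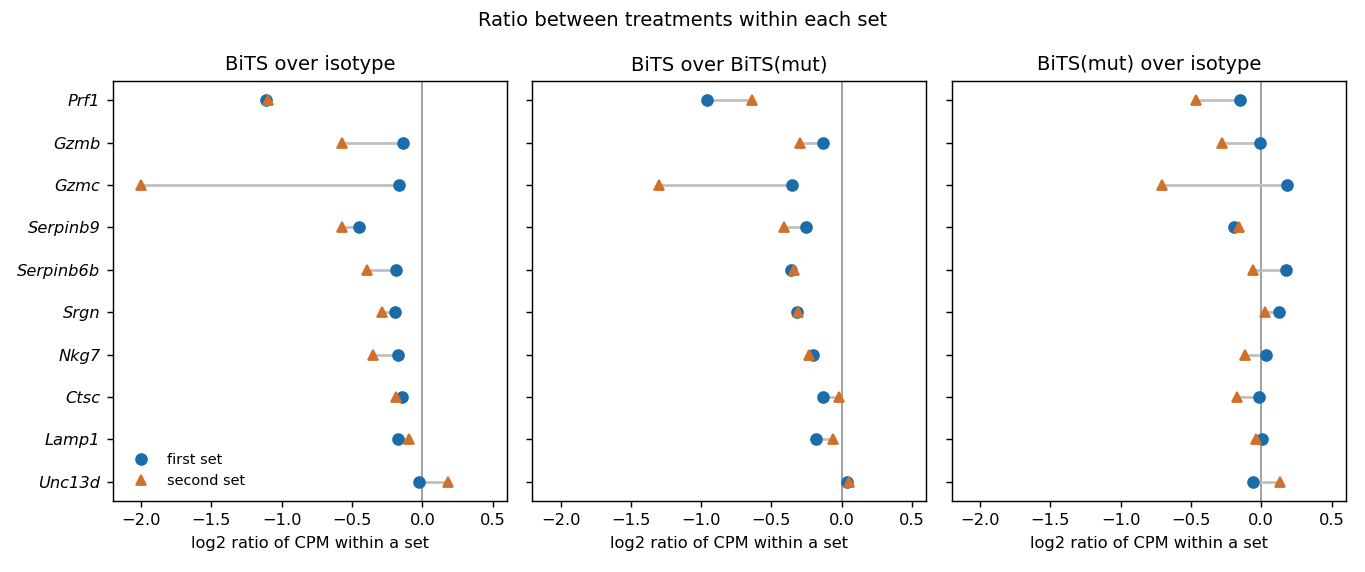
Log2 ratio of CPM within each set for the 10 genes, in BiTS over isotype, BiTS over BiTS(mut) and BiTS(mut) over isotype, with 1 point per set and a line at 0. Prf1 lies at -1.11 and -1.10 in BiTS over isotype, whereas Gzmc lies at -0.17 in the first set and -2.004 in the second.

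Against BiTS(mut), the comparison that asks what the mutation of BiTS changes, the picture was like that against isotype but smaller for Prf1 and the granzymes. Both comparisons share the BiTS libraries, so they are not independent. Prf1 was at -0.78 ± 0.10, Serpinb6b at -0.34 ± 0.08 and Serpinb9 at -0.31 ± 0.08, and these 3 of 10 were called lower with the block, where 0.7% of all tested genes were. Srgn was at -0.30 ± 0.08, Gzmc at -0.79 ± 0.31, Nkg7 at -0.20 ± 0.09 and Gzmb at -0.19 ± 0.08. Ctsc (-0.07) and Lamp1 (-0.11) were close to 0 and turned to 0.10 and 0.06 with spike-in scaling, which moved the median of all genes by 0.18 in this comparison. Unc13d was at 0.06. Without the block 0 of 13996 genes were called (0%), 76 being under 0.05 before adjustment, and DESeq2 called 0. Libraries of BiTS lay below both of BiTS(mut) for Prf1, Gzmc and Nkg7, against 8.52% of all tested genes. Prf1 ran from -0.96 to -0.61 without each of the 6 libraries in turn. Serpinb9 (-0.39 to -0.24) and Serpinb6b (-0.41 to -0.25) were called only when an isotype library was the one left out. Serpinb9 was not called at a CPM of at least 5 either.

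The BiTS library was the lowest of its set in both sets for 9 members, as for 19.4% of all tested genes. The median blocked log2 fold change of the 10 was -0.25 against isotype and -0.25 against BiTS(mut), while that of all tested genes was -0.005 and 0.001.

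Between BiTS(mut) and isotype, a comparison that asks whether the mutated molecule acts by itself, 0 of the 10 genes were called with or without the block. With the block 7 of 13996 genes were called (0.05%), and without it 0 (0%), 41 being under 0.05 before adjustment and 0 called by DESeq2. Prf1 was at -0.29 ± 0.09 (adjusted p = 0.747, edgeR with the block), and its log2 ratio was -0.15 in the first set and -0.46 in the second. Serpinb9 was at -0.16 ± 0.08, Gzmb at -0.14 ± 0.08 and Gzmc at -0.37 ± 0.28. The members' median was -0.05, beside 0.0002 for all tested genes. For Gzmc, Serpinb6b, Nkg7, Lamp1 and Unc13d the sign differed between the sets. Leaving out isotype 1 with the block put Gzmb at -0.34 (adjusted p = 6.89e-04, edgeR) and Prf1 at -0.41 (adjusted p = 0.0228), while leaving out isotype 4 put Gzmb at 0.07 and Prf1 at -0.18, neither called. Whether these 2 genes passed thus turned on which isotype library was used.

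Between the sets Ctsc, Srgn, Lamp1 and both serpins were higher in the first, as the plot of the sets shows. Gzmb and Nkg7 did not pass the test with TMM scaling, and with spike-in scaling Gzmb did. Prf1 and Gzmc were lower with TMM scaling, though Prf1 turned to 0.09 with spike-in scaling. In a fit across all genes with the group as a term (edgeR's quasi-likelihood test), Ctsc had a log2 fold change, first over second set, of 1.33 ± 0.07 (adjusted p = 1.06e-20). Serpinb6b was at 0.96 ± 0.07, Lamp1 and Srgn each at 0.90 ± 0.07, and Serpinb9 at 0.77 ± 0.07. Prf1 fell by 0.66 ± 0.08 on the log2 scale (adjusted p = 6.77e-10), Gzmc was at -0.96 ± 0.24 and Unc13d at -0.17 ± 0.07, while spike-in scaling put Prf1 at 0.09, Gzmc at -0.12 and Unc13d at 0.59, none of them called lower. That scaling moved the median of all tested genes to 0.74, against -0.02 with TMM, so these 3 genes lay below the median gene under both scalings. Gzmb was at 0.13 ± 0.07 (adjusted p = 0.0983, edgeR) and Nkg7 at 0.01 ± 0.07 (adjusted p = 0.920, edgeR), while spike-in scaling put Gzmb at 0.90 (adjusted p = 0.0224, edgeR) and Nkg7 at 0.77 (adjusted p = 0.0608, edgeR). Dendritic cell and macrophage markers were also higher in the first set, and their part in these differences was not tested.

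In all, 5 members were called higher in the first set, against 26.9% of all tested genes, and 3 were called lower, against 25.9%. With spike-in scaling these were 6 members higher, Gzmb being the sixth, against 43.3% of all tested genes, and 0 lower, against 0.436%. The median of all 10 genes was 0.45 with TMM scaling and 1.21 with spike-in scaling, beside -0.02 and 0.74 for all tested genes. Every library of the first set lay above every library of the second in CPM for the same 5 (Ctsc, Serpinb6b, Lamp1, Srgn and Serpinb9), as for 31.7% of all tested genes, and below for none, as for 24.1%. Ctsc was 2.56-fold higher in the first set in BiTS, 2.77-fold in BiTS(mut) and 2.48-fold in isotype, so the difference was of like size in every treatment. Prf1 in the first set was 0.604 of the second in BiTS, 0.755 in BiTS(mut) and 0.609 in isotype. The set difference of Gzmc was that of BiTS(mut) and isotype, with ratios of 0.565 and 0.306, while in BiTS it was 1.09. Without isotype 1 or isotype 4 Gzmc was at -0.49 or -0.48 and was not called, and Gzmb, at 0.28 or 0.27, was called higher. Unc13d lost its call without any of the 4 BiTS or BiTS(mut) libraries, at -0.15 to -0.13.

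**Figure D3:**
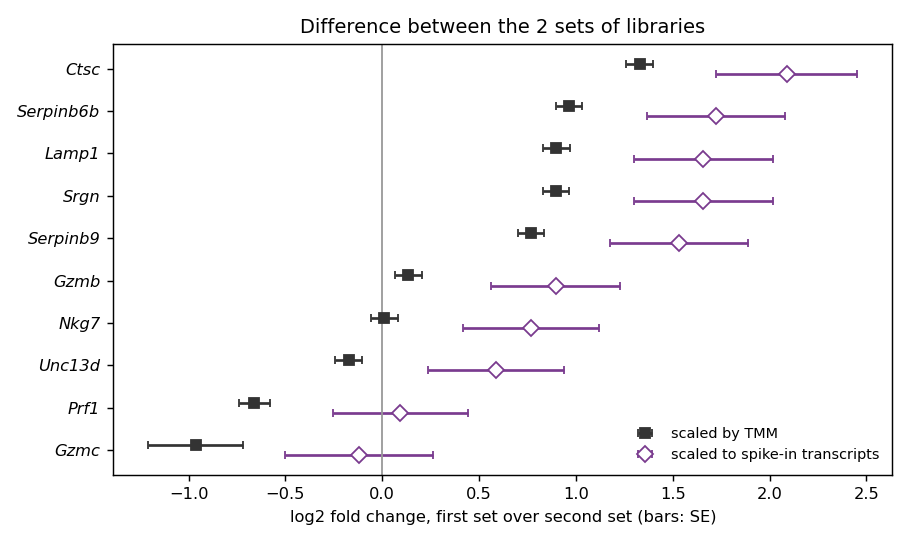
Log2 fold change, first over second set, of the 10 genes in the fit with group as a term, with bars for ± 1 SE and a second marker for spike-in scaling. Ctsc, Serpinb6b, Lamp1, Srgn and Serpinb9 lie between 0.77 and 1.33 with TMM, and Prf1, at -0.66 with TMM, lies at 0.09 with spike-in scaling.

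Ratios within 1 library do not depend on its scaling and show how the granule genes shifted against each other. Prf1 per 1000 Gzmb counts was 14.1 and 30.5 in BiTS, 25.1 and 38.7 in BiTS(mut), and 27.7 and 43.9 in isotype. BiTS was lowest in each set, but the second BiTS library lay above the first BiTS(mut) and isotype libraries. Per 100 counts of the steady Unc13d, Prf1 was at 19.0 and 27.4 in BiTS, 37.9 and 44.2 in BiTS(mut), and 40.4 and 66.8 in isotype, without overlap between BiTS and the others. Per 100 Nkg7 counts it was at 25.4 and 45.9 in BiTS, 42.8 and 60.8 in BiTS(mut), and 48.6 and 77.1 in isotype. Within each set Prf1 was thus lower in BiTS relative to Gzmb, Unc13d and Nkg7 as well.

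The granzyme B to inhibitor ratio followed the sets instead. Gzmb per Serpinb9 count was 5.53 and 7.99 in BiTS, 5.08 and 7.36 in BiTS(mut), and 4.46 and 8.002 in isotype. Its values in the first set lay below those in the second in every group, and BiTS differed from isotype by 0.31 (log2) in the first set and -0.003 in the second. Gzmb per Srgn count was likewise 5.55 and 8.36 in BiTS, 4.86 and 8.26 in BiTS(mut), and 5.34 and 10.2 in isotype. All 10 genes together held 0.505% and 0.345% of gene counts in BiTS, 0.581% and 0.419% in BiTS(mut), and 0.577% and 0.482% in isotype. Gzmb alone made up 52.0% and 58.5% of these in BiTS, 49.5% and 58.9% in BiTS(mut), and 50.2% and 62.2% in isotype.

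**Figure D4:**
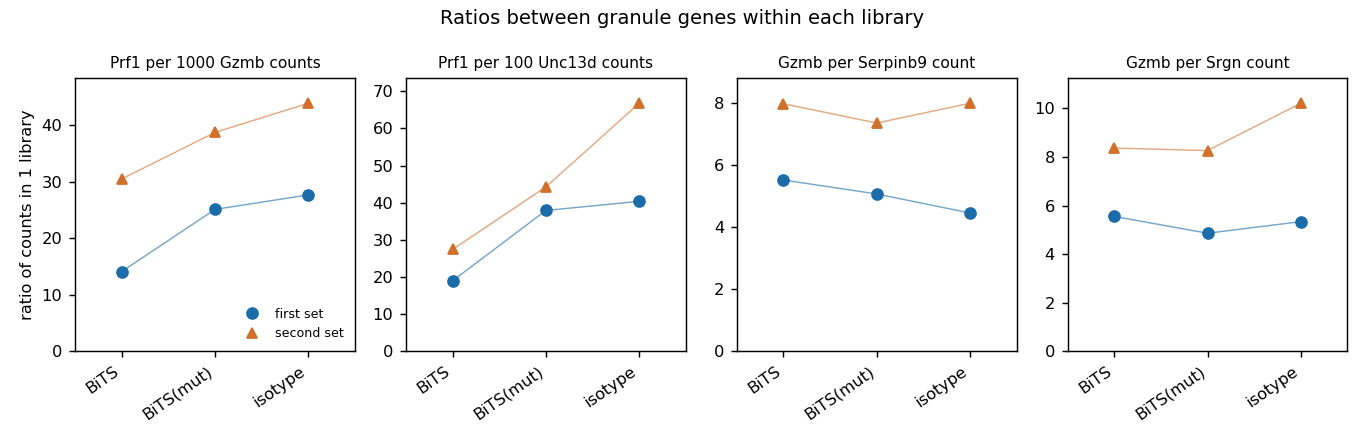
Ratios of counts between granule genes within each library, with 1 point per library and BiTS left of BiTS(mut) left of isotype. Prf1 per 1000 Gzmb counts runs from 14.1 to 43.9 and is lowest in BiTS within each set, while Gzmb per Serpinb9 count, from 4.46 to 8.002, splits by set.

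Some other serpins were lower in BiTS too. This list and the lists below were also chosen with earlier results of these data known. Their calls and p-values between treatments are therefore given as description too. Of 14 listed, 6 were tested, and with the block 3 fell in BiTS against isotype, where 1.59% of all tested genes were called lower. Serpinb9b, a close copy of Serpinb9, had 40.9 and 27.0 CPM in BiTS, 55.5 and 40.0 CPM in BiTS(mut), and 62.7 and 52.5 CPM in isotype, a log2 fold change over isotype of -0.74 ± 0.11 (adjusted p = 6.49e-06, edgeR). Serpinb1a, an inhibitor of neutrophil-type serine proteases, had 111 and 57.7 CPM in BiTS, 153 and 86.8 CPM in BiTS(mut), and 159 and 87.0 CPM in isotype (-0.52 ± 0.09, adjusted p = 9.70e-05, edgeR). Serpina3g had 82.6 and 45.6 CPM in BiTS, 100.01 and 53.2 CPM in BiTS(mut), and 138 and 58.9 CPM in isotype (-0.54 ± 0.09, adjusted p = 1.70e-04, edgeR). Serpina3g has close copies beside it, so its counts are uncertain. All 6 had a negative value, with a median of -0.44. Serpinb9b and Serpinb1a were called without any 1 library, and Serpina3g was at -0.43 and not called without BiTS 1.

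Against BiTS(mut), Serpinb9b (-0.48 ± 0.11) and Serpinb1a (-0.50 ± 0.09) were the 2 of 6 that fell, where 0.7% of all tested genes were called lower. Serpinb9b was not called without BiTS 2 (-0.37), BiTS(mut) 1 (-0.43) or BiTS(mut) 2 (-0.52), nor by DESeq2 with the block. Serpinb1a was not called without BiTS 2 (-0.45), BiTS(mut) 1 (-0.53) or BiTS(mut) 2 (-0.47). None of the 6 was called between BiTS(mut) and isotype. Serpinb1a, Serpinb6b, Serpinb9 and Serpinb9b lie near each other in a cluster of 15 Serpinb genes on chromosome 13, from 32842092 to 34002794 (mm10), of which 9 had counts and 6 had none. In the granzyme cluster on chromosome 14, from 56117619 to 56262260, 5 of 7 genes had counts, and Gzmb held nearly all of them.

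In the machinery that makes and releases granules single genes passed the test between treatments with the block, and without it none did, nor did any other serpin. With spike-in scaling and the block none of the genes of these lists named as risen or fallen was called. Of 17 tested exocytosis genes 1 rose in BiTS against isotype, where 1.81% of all tested genes were called higher: Sytl1, a synaptotagmin-like binding partner of Rab27 proteins. It had 72.4 and 57.9 CPM in BiTS, 57.4 and 57.8 CPM in BiTS(mut), and 48.9 and 40.8 CPM in isotype (0.57 ± 0.10, adjusted p = 2.18e-04, edgeR). Without BiTS 1 it was at 0.45 and not called. Rab27a, which tethers granules to the membrane, was at 0.06, the syntaxin Stx11 at -0.15 and its partner Stxbp2 at 0.13, none called. The list's median was -0.01. Of 12 genes of granule biogenesis and membrane 1 rose, Igf2r, a receptor that sorts lysosomal enzymes (0.30 ± 0.09, adjusted p = 0.0366, edgeR), which was not called without BiTS 2 (0.19), isotype 4 (0.27) or either BiTS(mut) library (0.30), nor by DESeq2 (adjusted p = 0.167) or with no filter on low counts (adjusted p = 0.0776).

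Among 9 tested lysosomal proteases and cystatins 1 rose in BiTS against isotype, where 1.81% of all tested genes were called higher. This was Ctsw, a cathepsin of killer lymphocytes (0.32 ± 0.09, adjusted p = 0.0406, edgeR). It was not called without BiTS 2 (0.16), isotype 4 (0.19) or either BiTS(mut) library (0.32). It was not called by DESeq2 (adjusted p = 0.286), with no filter on low counts (adjusted p = 0.0804) or at a CPM of at least 5 (adjusted p = 0.0562) either. Cst7, which encodes the granule cystatin F, was at -0.002. Of 14 transcription factors 1 fell, where 1.59% of all tested genes were called lower. This was Irf4, which T cell receptor signals induce, with 178 and 208 CPM in BiTS, 194 and 248 CPM in BiTS(mut), and 223 and 294 CPM in isotype (-0.38 ± 0.08, adjusted p = 0.00365, edgeR). It was at -0.30 and not called without BiTS 2. Eomes (-0.09) and Tbx21 (-0.08), which drive Prf1 and Gzmb transcription, were not called, nor were Runx3 (0.22) and Prdm1 (0.01). Fasl, the death ligand of the granule-independent killing route, was at 0.01. In BiTS against BiTS(mut) and in BiTS(mut) against isotype, 0 genes of these 5 lists (exocytosis, biogenesis, proteases and cystatins, transcription factors, death ligands) were called. With the block 0.7% of all tested genes were called lower in BiTS against BiTS(mut). In BiTS(mut) against isotype 0.05% were called in either direction.

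Between the sets, where 26.9% of all tested genes were called higher in the first and 25.9% lower, more genes of the same lists passed. With the group as a term and TMM scaling 9 of 17 exocytosis genes were higher in the first set and 0 lower, and 8 of 12 biogenesis genes were higher and 2 lower. Among the proteases and cystatins 6 of 9 were higher and 3 lower, led by Lgmn (1.84), Ctsh (1.5001) and Ctss (1.48), lysosomal proteases that are abundant in antigen-presenting cells. Of the 6 other serpins 4 were higher and 1 was lower, and of the transcription factors 6 of 14 were higher and 5 lower. Eomes was at -1.04 ± 0.13 and Fasl at -0.79 ± 0.12, the same side as Prf1, and spike-in scaling put them at -0.27 and -0.03. That scaling lifted the median of all tested genes to 0.74, against -0.02 with TMM.

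Markers of antigen-presenting cells differed between the sets and, in fewer genes, between treatments, and their part in the treatment differences was not tested. The 13 dendritic cell markers together held 901 and 607 CPM in BiTS, 1170 and 757 CPM in BiTS(mut), and 1280 and 727 CPM in isotype, with Siglech at 0 in all libraries. The chemokine gene Ccl22 was the largest part of this sum in every library. It held 209 and 175 CPM in BiTS, 357 and 270 CPM in BiTS(mut), and 405 and 256 CPM in isotype. With the block 5 of the 11 tested were lower in BiTS than in isotype (1.59% of all tested genes) and 3 lower than in BiTS(mut) (0.7%). The 5 were Ccl22, Ccl17, Ciita, H2-Aa and Xcr1. Flt3, Itgax, Zbtb46, Clec9a, Batf3 and H2-Ab1 were not called against isotype, though all 11 had a negative value. In CPM, Flt3, Itgax, Clec9a and H2-Ab1 were higher in BiTS than in isotype in the second set. In the first set 9 were higher (26.9% of all tested genes) and 1 lower (25.9%). The 9 macrophage markers held 37.8 and 16.9 CPM in BiTS, 39.4 and 15.0 CPM in BiTS(mut), and 45.6 and 16.2 CPM in isotype, and all 4 tested were higher in the first set. Such cells also express Ctsc, Lamp1, Srgn and serpins.

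The 10 CD8 T cell markers held 2381 and 2415 CPM in BiTS, 2187 and 2245 CPM in BiTS(mut), and 2029 and 2129 CPM in isotype, and 3 (Cd8a, Cd8b1 and Lck) were called higher in BiTS than in isotype, where 1.81% of all tested genes were. Cd5, at -0.27, and Cd6, at -0.06, of the same list were not called. Against BiTS(mut) with the block 0 of the 10 were called higher and 1 lower, where 0.7% of all tested genes were called lower. Per 100 counts of these markers Prf1 was at 1.56 and 2.54 in BiTS, 3.30 and 4.26 in BiTS(mut), and 3.95 and 6.18 in isotype, a log2 ratio of BiTS over isotype of -1.34 in the first set and -1.28 in the second. The marker sum was itself highest in BiTS in each set, and in CPM the same ratios of Prf1 were -1.11 and -1.10. Natural killer cells also make perforin, and their 9 markers held 0.569 to 2.41 CPM with Klra4 at 0. The 8 neutrophil markers held 0.185 to 0.732 CPM, with S100a8 and S100a9 at 0, the 7 mast cell markers 0 to 0.0901 CPM, with 5 at 0, and the 7 B cell markers 4.60 to 6.26 CPM. Total gene counts ran from 10813123 to 15239077 a library and 3.36% to 7.54% of all counts fell on the ERCC spike-in transcripts.

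The genes whose profile over the 6 libraries lay nearest to that of Prf1, among 9806 compared, were Mir22hg, Egr2, Ly6a, Slc25a33 and Lif. Nearness was the root mean square difference of centred log2 CPM, at 0.210 for Mir22hg, 0.259 for Egr2, 0.266 for Ly6a, 0.284 for Slc25a33 and 0.285 for Lif, while the profile of Prf1 itself had a root mean square of 0.564. Nearest to Gzmb were Mmd (0.027), Mfsd5 (0.031), Pcgf3 (0.048), Erg28 (0.050) and Vma21 (0.050), where Gzmb itself had 0.195. Prf1 thus had no neighbour as close as those of Gzmb.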

How the data were processed

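RNA was sequenced from 6 libraries, 2 for each of BiTS, BiTS(mut) and isotype. The authors deposited raw counts per gene, 1 table per library, with exon intervals per the file headers. The submitters' processing notes name mm10 and DESeq2. Neither aligner nor counter, annotation release or strand setting is given in the sources used. Gene symbols came by identifier from GENCODE M21, which held 49412 of the 49671 identifiers. The granule genes and all gene lists were chosen with earlier results of these data known.

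In R 4.3.3, edgeR 4.0.16 (with limma 3.58.1) kept 13996 genes by filterByExpr, scaled them by TMM and tested them over all 6 libraries with its two-sided quasi-likelihood test. Genes were called at a Benjamini-Hochberg adjusted p under 0.05, adjusted over all tested genes. Each SE was worked back from the test, as the absolute log2 fold change divided by the square root of the F statistic. The design had 1 coefficient per group and no block. The same fit with the set as a replicate block is printed beside it, since it changes every count of calls between treatments, with 2 residual degrees of freedom a gene and 45.95 shared over genes, against 3 and 3.14 without the block. The pairing comes from title numbers. As a check, the deviations of same-set libraries from their group means had correlations of 0.74, 0.663 and 0.728 over 13996 genes. The comparison of sets used the blocked fit. CPM uses the total gene counts, without the 92 spike-in transcripts, and RPKM divides CPM by the exon length in the deposited tables. A count of 0 allows up to 3 counts, 0.197 to 0.277 CPM. That limit and the 95% Wilson intervals cover counting error only.

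Alternatives were DESeq2 1.42.0, RLE size factors, spike-in scaling, no filter, a CPM of at least 5 in 2 libraries, and leaving out each library. The steps were tested on simulated data. Named were all 10 genes, up to 4 called genes of each other granule list per comparison with the smallest p, 10 fixed genes, and the 5 profiles nearest to Prf1 and to Gzmb among genes averaging at least 5 CPM. Some were left out of the text. Promoter windows came from RefSeq (GRCm38.p6), which held 10 windows for 9 of the 10 genes. Unc13d had none there.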

Additional observations from a re-analysis of the deposited data

Results flagged for a closer look

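For 5 of the granule genes the log2 ratio of CPM had opposite signs in the first and the second set in a treatment comparison, and the difference between the sets was not tested. In BiTS(mut) over isotype, Gzmc was at 0.18 in the first set and -0.70 in the second, on 49 counts in BiTS(mut) and 33 in isotype in the first, and 70 in BiTS(mut) and 103 in isotype in the second. Serpinb6b was at 0.18 in the first set and -0.057 in the second, Nkg7 at 0.033 and -0.12, and Lamp1 at 0.0060 and -0.035. Unc13d was at -0.059 in the first set and 0.13 in the second in BiTS(mut) over isotype, and at -0.022 and 0.18 in BiTS over isotype.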

How the results depend on the processing

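The treatment comparisons depend on the block. In BiTS over isotype the unblocked fit called 0 genes and the replicate block 476, with 155 by DESeq2 with the block, 461 with RLE size factors and the block, 409 at a CPM of at least 5 with the block, and 11 and 458 with no filter, without and with the block. In BiTS over BiTS(mut) the block gave 136, with 51 by DESeq2, 148 with RLE and 102 at a CPM of at least 5, and no filter gave 3 without and 155 with it. In BiTS(mut) over isotype the block gave 7, with 2 by DESeq2, 7 with RLE, 5 at a CPM of at least 5 and 1 with spike-in scaling, and no filter gave 5 without and 14 with it. Leaving out 1 library gave 0 to 937 genes in BiTS over isotype, 0 to 435 in BiTS over BiTS(mut) and 0 to 132 in BiTS(mut) over isotype. Spike-in scaling with the block called 0 in the first 2 comparisons. The count between sets, 7382, stayed within 1.5 times under all alternatives run, but its split did not: 3764 higher and 3618 lower with TMM, and 6062 higher and 61 lower with spike-in scaling. With spike-in scaling and the block, signs turned in BiTS(mut) over isotype for Serpinb6b (-0.047), Srgn (-0.031), Lamp1 (-0.11) and Unc13d (-0.071), and between sets for Prf1 (0.094) and Unc13d (0.59). Nkg7 between sets was at -0.013 at a CPM of at least 5 and ran from -0.026 to 0.089 without 1 library. In BiTS(mut) over isotype, leaving out 1 library gave, over the fits without and with the block, -0.68 to 0.12 for Prf1, -0.34 to 0.069 for Gzmb, -1.09 to 0.70 for Gzmc, -0.58 to 0.24 for Serpinb9, -0.52 to 0.56 for Serpinb6b, -0.45 to 0.57 for Srgn, -0.14 to 0.077 for Nkg7, -0.94 to 0.71 for Ctsc, -0.56 to 0.52 for Lamp1 and -0.054 to 0.15 for Unc13d. With the block alone Prf1 ran from -0.47 to -0.12, Serpinb9 from -0.22 to -0.12 and Srgn from 0.01 to 0.16, with no change of sign. The causes were not tested. In fits without 1 library the lone sample of its group is assumed to vary like the other groups. Depth limits Gzmc, with 25 to 103 counts a library, and the granzymes below it.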
